A study of Danio rerio with 6 samples.

Results

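The 9 zebrafish genes that encode alpha subunits of the Na/K-ATPase, *atp1a1a.1* to *atp1a1a.5*, *atp1a1b*, *atp1a2a*, *atp1a3a* and *atp1a3b*, were described in whole larvae homozygous for a *tafazzin* frameshift and in wild-type larvae. They were taken by symbol from the 27335 genes of the deposited table, and each symbol was found once. RNA-seq libraries were made for both genotypes, with 25 larvae to a pool, in 3 pools from wild-type and 3 from maternal zygotic (MZ) *tafazzin* mutants at 5 days post-fertilization (dpf). The mutants are homozygous for a CRISPR/Cas9 frameshift allele (*taz* E3/E3) and were born to homozygous mutant parents, so they carry neither maternal nor zygotic wild-type transcript. The wild-type larvae (*taz* +/+) carry no mutant allele. One account places all pools in the same clutch and another describes separate incrosses for mutant and wild-type larvae. Homozygous mutant parents have no wild-type offspring, so genotype and parental cross cannot be told apart. No other treatment or transgene is given for either genotype. A library is the average of 25 whole animals. In such a mixture, fewer cells of a type and less RNA per cell cannot be told apart.

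The Na/K-ATPase is the pump of animal plasma membranes that spends ATP to export sodium and import potassium. Its alpha subunit splits ATP, carries the ions and binds ouabain, its beta subunit brings the complex to the membrane, and small FXYD proteins tune its activity. Zebrafish keep several alpha 1 genes next to each other on 1 chromosome, of which *atp1a1a.1*, *atp1a1a.2* and *atp1a1a.5* have been assigned in zebrafish to separate ionocytes, the skin and gill cells that take up salt. In that scheme *atp1a1a.1* goes with the Na/K-ATPase-rich (NaR) cells that take up calcium, *atp1a1a.2* with the NCC cells that take up chloride and *atp1a1a.5* with the H-ATPase-rich (HR) cells that secrete acid. The *atp1a1a.1* gene is also needed for heart and brain ventricle development in zebrafish, *atp1a2a* belongs to the alpha 2 type of muscle and glia, and *atp1a3a* and *atp1a3b* belong to the alpha 3 type of neurons.

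Values are FPKM, fragments scaled to exon length and to sequencing depth, so levels of different genes can be set side by side per length. The alpha genes are alike in sequence, and how the authors assigned reads that match several copies is not given in the sources used here, so the values of single copies are uncertain to that extent. FPKM summed to between 501725 and 540974 per pool. Depth was estimated from the most frequent ratio to mutant pool 0 among genes low in every pool, taken as 1 fragment against 1. By that estimate the pools held 0.84 to 1.27 times the fragments of mutant pool 0. The *tafazzin* transcript, listed as *taz*, was at 8.53 to 12.3 FPKM in wild-type and at 3.84 to 6.09 FPKM in the mutant pools (-1.04 on the log2 scale, limma adjusted p = 0.0468, and 0.0298 to 0.184 with 1 pool left out). The first principal component (36.1% of the variance) placed wild-type at -29, -32 and -10.5 and MZ mutants at 19.9, 16.4 and 35.2, in the order of pools 0, 1 and 2 that is used for all values given pool by pool. Wild-type pool 2 stood nearest to the mutants. Of the 9 alpha genes, 7 were highest in pool 2 among the wild-type pools and 7 were highest in pool 2 among the mutant pools. The corresponding shares of all genes tested were 38.8% and 35.8%. The part of these pools in the results was not tested beyond leaving them out.

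Among the alpha subunit genes, 3 were higher in MZ *tafazzin* mutants by the test and the other 6 did not pass. By limma on log2(FPKM + 1), with p-values adjusted over the 21843 genes that averaged 0.5 FPKM or more, 3 of 9 alpha genes rose (*atp1a1a.3*, *atp1a1a.2* and *atp1a1b*) and none fell, where 0.911% of all genes tested passed in either direction at an adjusted p under 0.05 and 0.696% passed as higher. None of the 3 passed with no filter on low values or without the mean-variance trend of the fit (limma adjusted p = 0.0772 to 0.171), where 7 of 9 had an unadjusted p under 0.05 against 14.5% and 15.4% of all genes. The mutant pools lay wholly above the wild-type pools for 6 of 9 alpha genes and wholly below for 1, *atp1a1a.4*, against a background of 22.3% of genes tested that did not overlap in either direction. Among genes averaging 5 FPKM or more, that background was 25.5%. At an unadjusted p under 0.05, 7 of 9 differed, where 16.3% of all genes tested did. The log2 fold change was positive for 8 of 9 alpha genes and for 50.4% of all genes tested. The median log2 fold change of the 9 genes was 0.60, against 0.002 over all genes tested. The 9 genes were chosen with earlier results of these data known. Their contrasts with all genes are therefore a description and not a test of the family. The added 1 shrinks the fold changes of weakly expressed genes. With the filter at 5 FPKM, which *atp1a1a.5* did not reach, 269 of 13262 genes passed by limma. Among them were *atp1a1a.3*, *atp1a1a.2* and *atp1a1b*. When 1 pool was left out, 3 alpha genes passed without wild-type pool 2 (*atp1a1a.3*, *atp1a1b* and *atp1a3b*; background 1.93%, and 19.2% at an unadjusted p under 0.05, which all 9 reached) and none passed without any 1 of the other pools, where 7 differed at an unadjusted p under 0.05 (background 12.4% and 12.7% without wild-type pool 0 or 1, and 14%, 14.4% and 11.8% without mutant pool 0, 1 or 2).

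**Figure D1:**
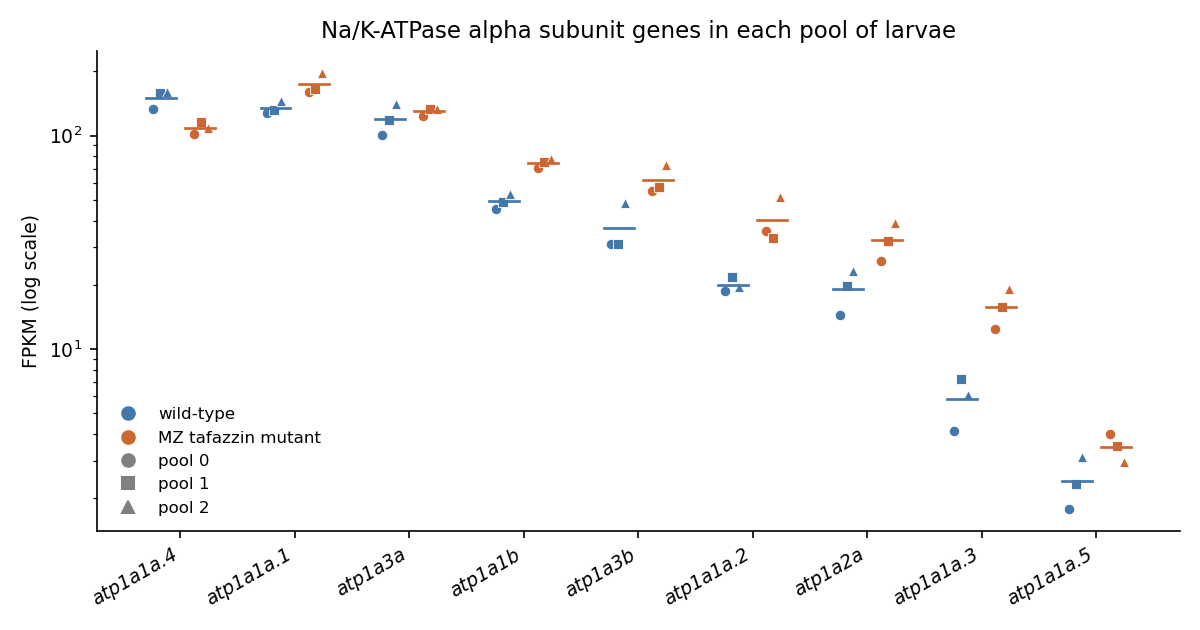
FPKM of the 9 alpha subunit genes on a log axis, ordered by their wild-type mean, with 1 point per pool (circle, square and triangle for pools 0, 1 and 2) and a line at the mean of each genotype. The mutant points lie below the wild-type points for *atp1a1a.4*, overlap with them for *atp1a3a* and *atp1a1a.5*, and lie above them for the other 6 genes.

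In wild-type larvae the genes formed a range from 151 to 2.42 FPKM. The 3 most abundant were *atp1a1a.4* (mean 151 FPKM), *atp1a1a.1* (135 FPKM) and *atp1a3a* (120 FPKM), whose neighbours in this order overlapped over the 3 pools. Next came *atp1a1b* (49.2 FPKM) and *atp1a3b* (36.9 FPKM), which overlapped with each other, and then *atp1a1a.2* (20.0 FPKM) and *atp1a2a* (19.1 FPKM), which also overlapped. The *atp1a1a.3* gene (5.81 FPKM) and *atp1a1a.5* (2.42 FPKM) stood apart from each other and from the rest at the low end. In MZ mutants the lower 6 places of this order were the same and the upper 3 were not: *atp1a1a.1* came first (174 FPKM), *atp1a3a* came next (130 FPKM) and *atp1a1a.4* followed (109 FPKM), with no overlap between these neighbours.

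The *atp1a1a.3* gene, one of the alpha 1 copies of chromosome 1, had the largest fold change of the family. It read 4.12, 7.25 and 6.07 FPKM in wild-type and 12.5, 15.8 and 19.2 FPKM in MZ mutants. Every mutant pool was above every wild-type pool, and the lowest mutant value exceeded the highest wild-type value by more than the range of the wild-type pools. Means were 5.81 ± 1.58 and 15.8 ± 3.34 FPKM (SD, n = 3), 2.72-fold higher in the mutants, which is 1.31 ± 0.21 (SE) on the log2 scale with limma adjusted p = 0.0306. Of all genes tested, 0.426% had a larger log2 fold change. The call held without wild-type pool 2 (limma adjusted p = 0.0436) and was lost without any 1 other pool (0.0703 to 0.118).

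The *atp1a1a.2* gene, assigned to NCC ionocytes, read 18.8, 21.8 and 19.5 FPKM in wild-type and 35.8, 33.0 and 51.6 FPKM in MZ mutants. Wild-type pools lay close together, while mutant pool 2 stood above the other mutant pools. Means were 20.0 ± 1.61 and 40.1 ± 10.0 FPKM (SD, n = 3), 2.00-fold higher in the mutants, which is 0.94 ± 0.16 (SE) on the log2 scale with limma adjusted p = 0.0370. Leaving out any 1 pool ended this call (limma adjusted p = 0.0569 to 0.157), although the log2 fold change stayed between 0.75 and 1.07.

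The *atp1a1b* gene, the alpha 1 copy that stands alone on chromosome 9 and is found in glia of the zebrafish brain, had the smallest p of the family. It read 45.2, 49.0 and 53.4 FPKM in wild-type and 70.9, 75.2 and 78.1 FPKM in MZ mutants. The groups were well separated, with little spread in either genotype. Means were 49.2 ± 4.12 and 74.7 ± 3.66 FPKM (SD, n = 3), 1.52-fold higher in the mutants, which is 0.60 ± 0.09 (SE) on the log2 scale with limma adjusted p = 0.0283. The call held without wild-type pool 2 (limma adjusted p = 0.0217) and was lost without any 1 other pool (0.081 to 0.106), with log2 fold changes of 0.54 to 0.66. For these 3 genes the exact permutation test over pools gave p = 0.1 (two-sided), the smallest that 3 pools against 3 allow.

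The 2 most abundant alpha genes in wild-type larvae, *atp1a1a.4* and *atp1a1a.1*, had fold changes of opposite sign. The *atp1a1a.4* gene read 134, 158 and 161 FPKM in wild-type and 102, 116 and 108 FPKM in MZ mutants. All mutant pools were below all wild-type pools. Its mean was 151 ± 15.0 FPKM in wild-type and 109 ± 7.25 FPKM in mutants (SD, n = 3), 72.0% of wild-type (log2 fold change -0.47, 95% confidence interval -0.69 to -0.25 from limma), and it did not pass (limma adjusted p = 0.0661). With quantile normalization or median scaling of the pools it did (limma adjusted p = 0.0270 and 0.0468). The *atp1a1a.1* gene read 127, 131 and 146 FPKM in wild-type and 160, 165 and 198 FPKM in MZ mutants. Again the groups did not overlap. Its mean was 135 ± 9.63 FPKM in wild-type and 174 ± 20.5 FPKM in mutants (SD, n = 3), a log2 fold change of 0.36 (95% confidence interval 0.13 to 0.60 from limma) that did not pass (limma adjusted p = 0.134).

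Within single pools the balance of these neighbours turned over. The ratio of *atp1a1a.1* to *atp1a1a.4* FPKM, looked at after their values were seen, was 0.952, 0.831 and 0.904 in wild-type and 1.57, 1.42 and 1.83 in MZ mutants, so *atp1a1a.4* was the higher of the pair in each wild-type pool and the lower in each mutant pool. As a share of the summed FPKM of the 9 alpha genes, *atp1a1a.4* made up 28.1 ± 1.27% in wild-type and 17.0 ± 1.52% in mutants (SD, n = 3). The share of *atp1a1a.1* was 25.1 ± 1.37% and 27.1 ± 0.982%. The shares of *atp1a1a.2* were 3.75 ± 0.434% and 6.21 ± 1.06%, and those of *atp1a1a.3* were 1.07 ± 0.247% and 2.45 ± 0.306%. The 5 genes of chromosome 1 together held 55.8% to 59.9% of the alpha FPKM in the wild-type pools and 52.8% to 54.0% in the mutant pools.

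**Figure D2:**
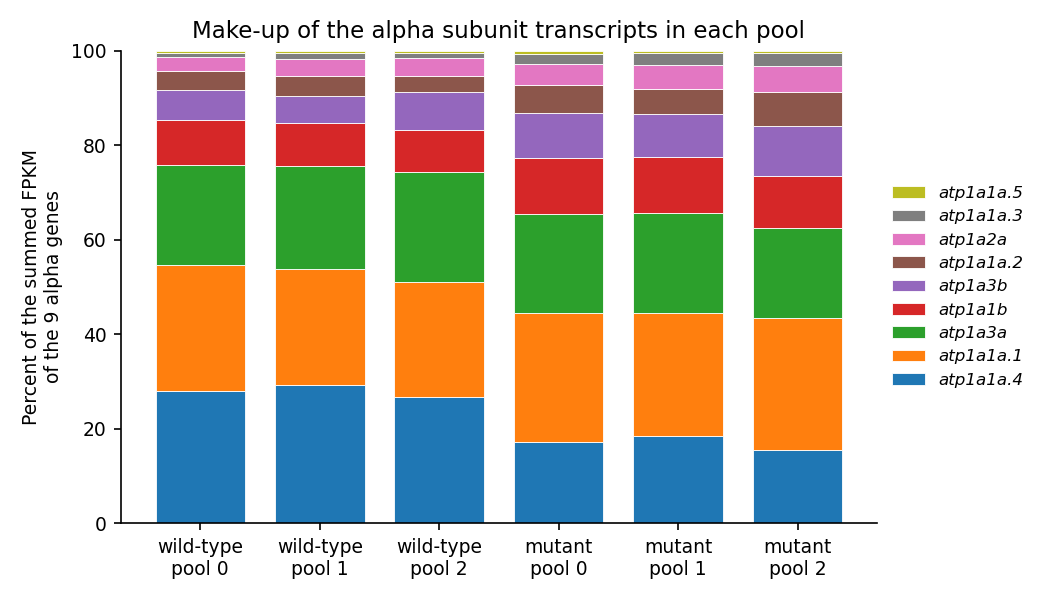
Percent of the summed FPKM of the 9 alpha genes that each gene contributed, 1 stacked bar per pool. The lowest segment, *atp1a1a.4*, spans 26.8% to 29.3% in the wild-type pools and 15.4% to 18.4% in the mutant pools, while those of *atp1a1b*, *atp1a3b*, *atp1a1a.2*, *atp1a2a* and *atp1a1a.3* are wider in each mutant pool than in any wild-type pool.

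The paralogs of the alpha 3 type, both neuronal, are given together. The *atp1a3b* gene read 30.9, 31.2 and 48.6 FPKM in wild-type and 55.1, 57.4 and 73.1 FPKM in MZ mutants. Pool 2 was the highest of either genotype, and the genotypes did not overlap. The means were 36.9 ± 10.1 and 61.9 ± 9.81 FPKM (SD, n = 3), a log2 fold change of 0.75 (95% confidence interval 0.34 to 1.16, limma adjusted p = 0.0940). It passed without wild-type pool 2 (0.96 on the log2 scale, limma adjusted p = 0.0229). The *atp1a3a* gene, the more abundant of both per length, read 101, 118 and 140 FPKM in wild-type and 123, 133 and 134 FPKM in MZ mutants. Its groups overlapped, with wild-type pool 2 above every mutant pool (0.13 on the log2 scale, 95% confidence interval -0.14 to 0.40, limma adjusted p = 0.627). The ratio of *atp1a3b* to *atp1a3a* FPKM ranged over 0.264 to 0.346 in wild-type and 0.431 to 0.547 in MZ mutants, and the difference between their fold changes was not tested.

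The *atp1a2a* gene, of the alpha 2 type, read 14.5, 19.7 and 23.2 FPKM in wild-type and 25.9, 32.0 and 39.1 FPKM in MZ mutants. The genotypes did not overlap but lay close, at 23.2 and 25.9 FPKM. Means were 19.1 ± 4.40 and 32.3 ± 6.59 FPKM (SD, n = 3), a log2 fold change of 0.73 (95% confidence interval 0.31 to 1.16, limma adjusted p = 0.111). The *atp1a1a.5* gene, assigned to HR ionocytes, was the lowest of the family. It read 1.79, 2.34 and 3.14 FPKM in wild-type and 4.00, 3.51 and 2.95 FPKM in MZ mutants, and the genotypes overlapped (0.40 on the log2 scale, 95% confidence interval -0.04 to 0.85, limma adjusted p = 0.350). The exact permutation test over pools gave p = 0.2 for *atp1a1a.5* and p = 0.6 for *atp1a3a*, and p = 0.1, the smallest possible, for *atp1a2a*, *atp1a3b*, *atp1a1a.4* and *atp1a1a.1*.

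The *atp1a1a.4* gene, the only alpha gene with a negative log2 fold change, is a direct neighbour of *atp1a1a.1*, and neither of them passed. On GRCz11 the 5 genes lie on chromosome 1 from 1689794 to 1850104, a stretch of 160.3 kb, in the order *atp1a1a.4* (1689794 to 1706159), *atp1a1a.1* (1712169 to 1731564), *atp1a1a.2* (1789357 to 1796834), *atp1a1a.3* (1805294 to 1815660) and *atp1a1a.5* (1838164 to 1850104). Only 6.0 kb separate *atp1a1a.4*, the gene that was lower in mutants, from *atp1a1a.1*, and 8.5 kb separate *atp1a1a.2* from *atp1a1a.3*, the 2 that rose. A single further gene, *LOC108187381*, is listed between the alpha genes and was under the filter on low values. The 2 genes listed on either side did not pass, and their log2 fold changes lay between -0.37 (*LOC103911757*) and 0.02 (*urp2*). The other 4 alpha genes stand on their own chromosomes, *atp1a1b* on 9 (35901663 to 35922188), *atp1a2a* on 2 (44203078 to 44255537), *atp1a3b* on 16 (10776688 to 10820909) and *atp1a3a* on 19 (6328245 to 6385541). No alpha gene shared its locus in the table with another gene.

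**Figure D3:**
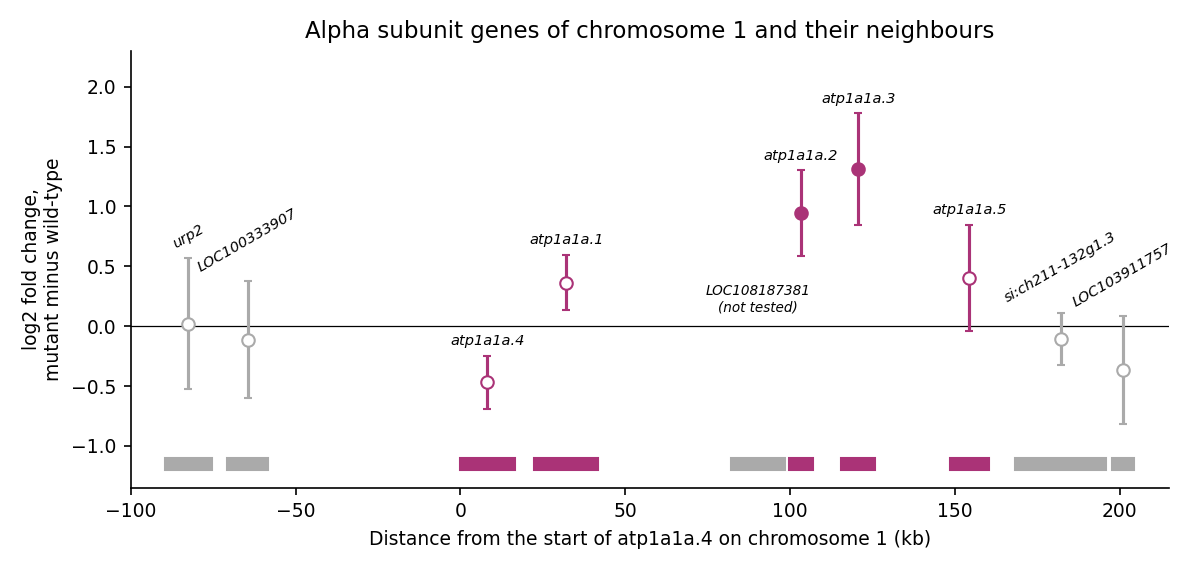
Log2 fold change (mutant minus wild-type, y axis, points with 95% confidence intervals from limma) of the 5 alpha genes of chromosome 1 and their listed neighbours against distance in kb from the start of *atp1a1a.4*, with boxes below for the extent of each gene, alpha genes in purple and others in grey, and filled points for genes that passed. The points of *atp1a1a.2* and *atp1a1a.3* stand at 0.94 and 1.31, that of *atp1a1a.4* at -0.47, and the intervals of the 4 tested neighbours include 0.

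Summed over the 9 genes, alpha FPKM was 477, 539 and 601 in wild-type and 589, 631 and 704 in MZ mutants. The genotypes overlapped at wild-type pool 2 and mutant pool 0, and the ratio of the means was 1.19 (539 ± 61.9 and 641 ± 57.9 FPKM, SD, n = 3). For the alpha genes of chromosome 1 alone the ratio was 1.09.

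None of the 7 beta subunit genes, whose products pair with alpha in the pump, passed by limma. An unadjusted p under 0.05 was reached by 2, both higher, and by 16.3% of all genes tested in either direction. The median log2 fold change was 0.23, and all 7 were positive, as were 50.4% of all genes tested. The beta genes with the smallest p were *atp1b1b* and *atp1b4*, the muscle type of beta subunit. The *atp1b1b* gene read 62.4, 66.4 and 56.0 FPKM in wild-type and 91.1, 87.7 and 121 FPKM in MZ mutants (0.68 on the log2 scale, limma adjusted p = 0.0563). The *atp1b4* gene read 37.8, 42.0 and 43.1 FPKM in wild-type and 54.2, 55.1 and 58.7 FPKM in MZ mutants (0.44 on the log2 scale, limma adjusted p = 0.0571), and it passed without wild-type pool 2 (0.0478). Both were without overlap between genotypes, as were 22.3% of all genes tested in either direction. Summed beta FPKM was 480 to 569 in wild-type and 592 to 698 in MZ mutants, without overlap and at a ratio of the means of 1.21. The summed FPKM of the 9 alpha genes and of the 7 beta genes were close in every pool, at an alpha to beta ratio of 0.994 to 1.06 in the wild-type pools and 0.995 to 1.01 in the mutant pools.

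Of 11 FXYD genes listed, 7 were matched and tested, and none passed by limma. An unadjusted p under 0.05 was reached by 1 that was higher and 1 lower, and by 16.3% of all genes tested. The median log2 fold change was -0.06. The *fxyd11* gene, an ionocyte FXYD of zebrafish listed as *si:dkey-33i11.4*, read 67.9, 76.2 and 78.5 FPKM in wild-type and 117, 94.1 and 159 FPKM in MZ mutants (0.70 on the log2 scale, limma adjusted p = 0.0943). The *fxyd7* gene, a brain FXYD of mammals listed as *si:dkey-56f14.4*, was at 20.8 ± 2.25 FPKM in wild-type and 16.9 ± 1.06 FPKM in mutants (SD, n = 3; -0.28 on the log2 scale, limma adjusted p = 0.251).

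**Figure D4:**
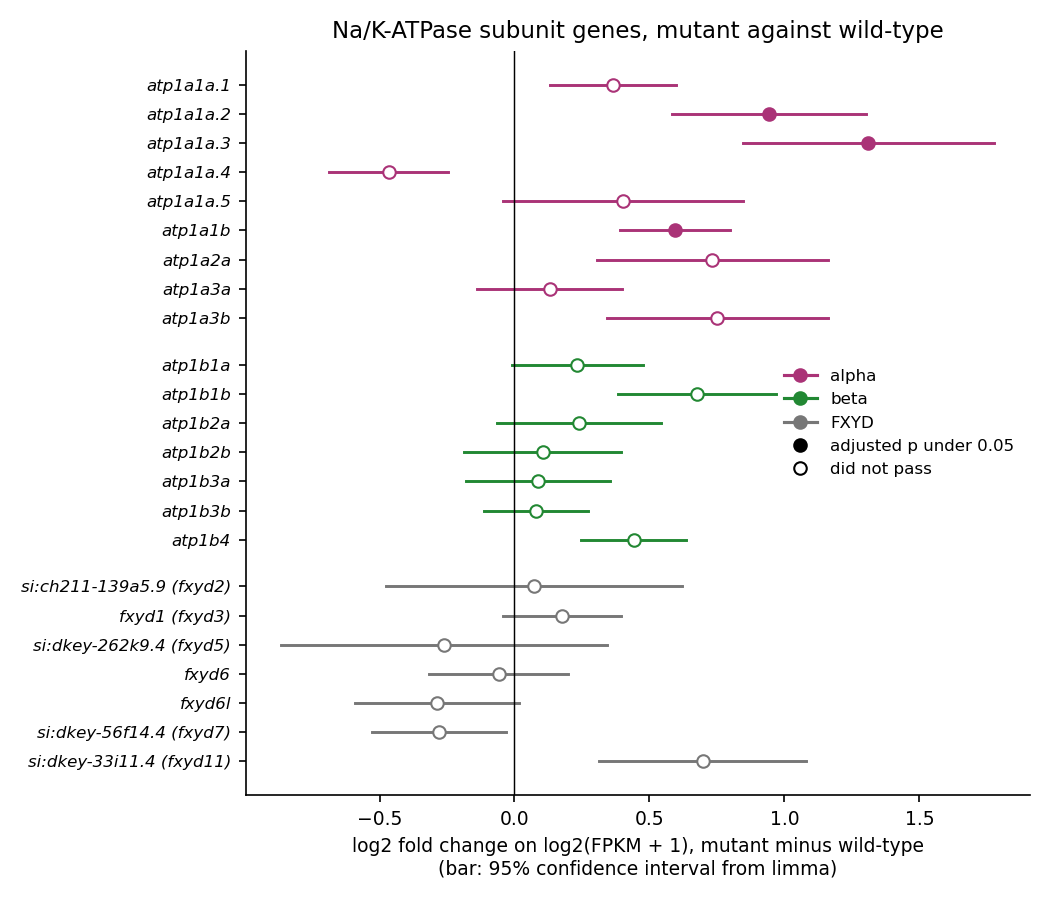
Log2 fold change of the 9 alpha, 7 beta and 7 FXYD genes (mutant minus wild-type, x axis) with 95% confidence intervals from limma, filled where the adjusted p was under 0.05. Filled points are *atp1a1a.2*, *atp1a1a.3* and *atp1a1b* among the alpha genes, there is none among beta or FXYD genes, and *atp1a1a.4* is the alpha gene below 0.

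Since several alpha genes have been assigned to cell types, lists of markers were read beside them. As background for their counts, 0.696% of all genes tested passed as higher by limma. An unadjusted p under 0.05 was reached by 16.3% in either direction. Of 4 NaR ionocyte markers 2 rose, the calcium channel gene *trpv6* (4.38, 4.90 and 3.90 FPKM in wild-type and 39.4, 34.0 and 74.6 FPKM in MZ mutants, limma adjusted p = 0.00279), which shares its locus in the table with another gene, and *igfbp5a*, an insulin-like growth factor binding protein gene (5.17 ± 0.848 and 11.7 ± 1.99 FPKM, limma adjusted p = 0.0306; SD, n = 3). The summed FPKM of that list ranged over 66.9 to 72.0 in wild-type and 105 to 146 in MZ mutants, beside the *atp1a1a.1* values above. The other 2 genes of the list, the calcium pump gene *atp2b2* and the sodium-calcium exchanger gene *slc8a1b*, were at 1.04 and 0.942 times their wild-type means and did not pass, so the higher sum came from *trpv6* and *igfbp5a*. Of 7 HR ionocyte markers 2 rose, the carbonic anhydrase gene *ca2* (35.9 ± 2.45 and 89.7 ± 23.8 FPKM, limma adjusted p = 0.0155) and the ammonia channel gene *rhcgb* (6.02 ± 0.174 and 17.9 ± 5.93 FPKM, limma adjusted p = 0.0217; SD, n = 3). Their summed FPKM was 109 to 124 in wild-type and 171 to 247 in the mutant pools, with *ca2* the largest part of the difference, where *atp1a1a.5*, the HR copy, did not pass. An unadjusted limma p under 0.05 was reached by 4 of the 7 HR markers and 2 of the 4 NaR markers, all higher. The 5 HR markers besides *ca2* and *rhcgb* did not pass. Relative to their wild-type means, *gcm2* was at 1.68, *atp6v1aa* at 1.33, *slc4a1b* at 1.19, *ca15a* at 1.07 and *slc9a3.2* at 0.907. The calls of *igfbp5a*, *ca2* and *rhcgb* were each lost with at least 1 pool left out (highest adjusted p = 0.115, 0.082 and 0.0978 from limma), and that of *trpv6* was not (0.031).

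Markers of NCC cells, the ionocytes of *atp1a1a.2*, did not pass (none of 4 by limma). An unadjusted p under 0.05 was reached by 1, which was higher, and by 16.3% of all genes tested in either direction. Among them the Na-Cl cotransporter gene *slc12a10.2*, at a stretch the table gives to 14 genes together, read 10.9, 12.5 and 12.6 FPKM in wild-type and 13.5, 14.2 and 18.2 FPKM in MZ mutants, without overlap (0.32 on the log2 scale, limma adjusted p = 0.278). The bicarbonate cotransporter gene *slc4a4b* read 16.8, 18.2 and 17.2 FPKM in wild-type and 14.6, 15.3 and 17.6 FPKM in MZ mutants (limma adjusted p = 0.571). The remaining NCC markers, *clcn2c* and *bsnd*, were at 0.84 and 0.90 times their wild-type means, with overlap between genotypes. The median log2 fold change of the NCC list was -0.118. Summed NCC marker FPKM ranged over 35.0 to 41.4 in wild-type and 34.9 to 44.5 in MZ mutants, beside *atp1a1a.2* at 2.00-fold. None of 6 KS ionocyte markers, the potassium channel genes *kcnj1a.1* to *kcnj1a.6*, passed by limma and none differed at an unadjusted p under 0.05 (summed FPKM 5.81 to 9.34 and 7.21 to 12.7). The smallest p belonged to *kcnj1a.5* and *kcnj1a.1* (log2 fold changes 0.65 and 0.34). Of the ionocyte transcription factor genes, *foxi1* was under the filter, and *foxi3a* and *foxi3b* did not pass by limma or at an unadjusted p under 0.05 (log2 fold changes 0.46 and 0.47). The part of ionocyte number or of RNA per ionocyte in the alpha values was not tested.

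For the tissues of the other alpha genes, none of 12 neuronal markers passed by limma. An unadjusted p under 0.05 was reached by 1, the enolase gene *eno2*, which was higher. Of all genes tested, 16.3% reached it in either direction. The median log2 fold change was -0.001, and summed FPKM was 847 to 933 in wild-type and 855 to 900 in mutants. Beside these, *atp1a3b* was at 1.68-fold and did not pass. The more abundant alpha 3 gene, *atp1a3a*, was at 1.09-fold with overlap between genotypes. The stathmin gene *stmn1b* stood at -0.12 on the log2 scale (limma adjusted p = 0.461). None of 8 glial markers passed by limma (unadjusted p under 0.05 for 4, higher, against 16.3% of all genes tested in either direction). Their median log2 fold change was 0.24, led by the glutamine synthetase gene *glula* (180 ± 7.85 and 314 ± 82.9 FPKM, limma adjusted p = 0.0655) and the prostaglandin D synthase gene *ptgdsb.1* (27.8 ± 3.54 and 46.6 ± 9.50 FPKM, limma adjusted p = 0.0692; SD, n = 3). Summed glial FPKM was 611 to 714 in wild-type and 750 to 981 in mutants, without overlap, beside *atp1a1b* and *atp1a2a*. The *glula* gene made up the largest part of that difference. Taken singly, 3 of the 8 glial markers were higher without overlap, as were 11.9% of all genes tested. The genes *gfap*, *fabp7a*, *slc1a2b*, *slc1a3b* and *s100b* overlapped. The *fabp7a* gene was at 0.936 times its wild-type mean. Of 16 skeletal muscle markers 1 fell, the actin gene *acta1a* (189 ± 24.2 and 121 ± 4.55 FPKM, SD, n = 3; limma adjusted p = 0.0345, between 0.0204 and 0.131 with 1 pool left out). Of all genes tested, 0.215% passed as lower. The median log2 fold change of the muscle markers was -0.10, beside *atp1a2a*, of the type of muscle and glia, at 1.69-fold without passing. The slow myosin gene *smyhc1* stood at 0.31 (limma adjusted p = 0.237). Neither 7 cardiac nor 11 pronephros markers held a gene that passed by limma (1 higher among the cardiac, 1 higher and 2 lower among the pronephros markers at an unadjusted p under 0.05), with medians of 0.05 and -0.03. Smallest p among them were those of the natriuretic peptide gene *nppa* (0.68, limma adjusted p = 0.210) and the titin gene *ttn.2* (-0.38, 0.458), and of the scaffold gene *pdzk1* (-0.23, 0.276) and the endocytic receptor gene *lrp2a* (-0.24, 0.286) of the kidney. Every marker of these cell types was above 0 in all pools except *kcnj1a.3* and *foxi1*, each listed at 0 in 1 pool. The part of these cell types in the alpha values was not tested.

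**Figure D5:**
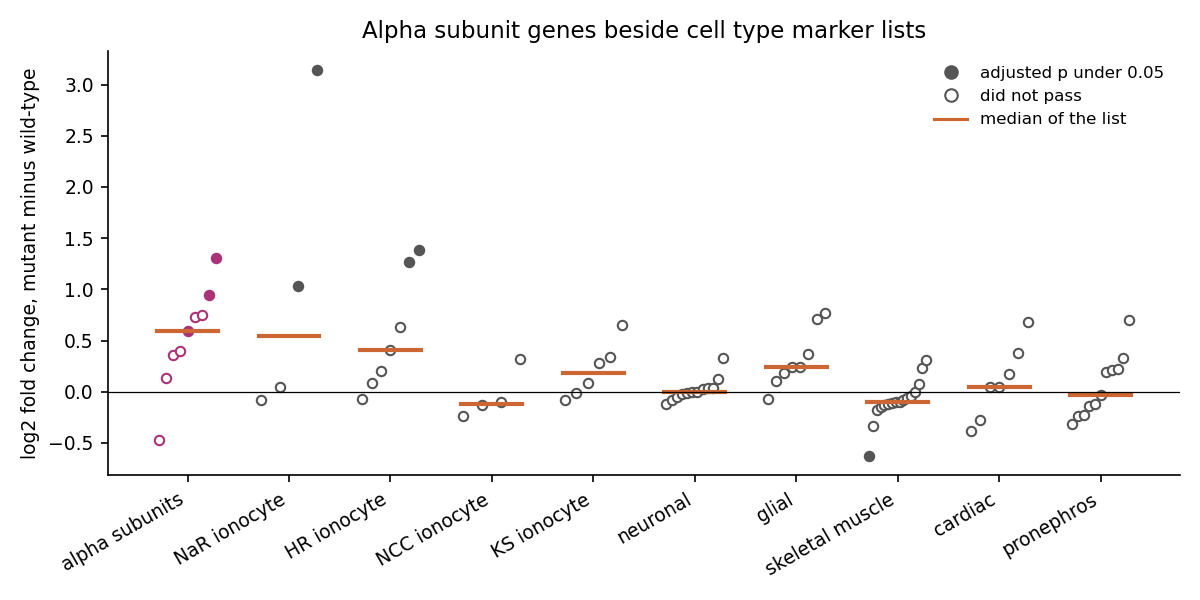
Log2 fold change (mutant minus wild-type, y axis) of each gene tested, 1 point per gene, for the alpha subunits in purple and for 9 cell type marker lists in grey, filled where the adjusted p from limma was under 0.05 and with an orange line at the median of the list. Medians are 0.60 for the alpha subunits, 0.54 for NaR, 0.41 for HR and 0.24 for glial markers, and lie between -0.12 and 0.19 for the other 6 lists.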

How the data were processed

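RNA from 3 pools of 25 larvae per genotype was sequenced. The FPKM the authors deposited for each gene and pool came from Cufflinks 2.2.1 and Cuffdiff after trimming by Trim Galore 0.4.2 and alignment to GRCz11 by STAR 2.5.3. Their Cuffdiff fold changes and p-values and the list of genes they called were not used. Not given in the sources used here are library scaling, strand and the treatment of reads with several matches. Read numbers are known only in relative terms.

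Columns name the genotype and carry numbers 0 to 2 that do not match those of the labelled samples, so columns were unlabelled replicates of their genotype. The pools are not stated to come from separate parents, so p-values measure the spread between these pools. At most 0.06% of values were identical between pools. Genes averaging 0.5 FPKM or more were fitted as log2(FPKM + 1) with limma 3.58.1 (R 4.3.3) and a mean-variance trend, with Benjamini-Hochberg adjustment over all genes tested and a threshold of 0.05. The fit was tested on simulated data. Exact permutation tests used SciPy 1.17.1, tables pandas 2.3.3 and figures matplotlib 3.10.9. Loci of the table were taken to start at 0, as in Cuffdiff output, and are written from 1.

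The 9 alpha genes and the lists were chosen with earlier results of these data known. Of 115 listed symbols, 111 were found in the table, 7 by another symbol in the RefSeq table of GRCz12tu (*fxyd1* of the table is *fxyd3* there and was counted once). Genes named are the alpha genes, *tafazzin*, genes next to the alpha genes on chromosome 1 (chosen after the values were seen), of each list up to 4 that passed or, where fewer than 2 passed, the 2 with the smallest p, and the 3 genes most alike to each of 3 alpha genes. Further list genes are named where needed to show how the rest of a list went. Other settings tried were each pool left out in turn, the column number as a block, no trend, median scaling, quantile normalization, filters at 5 FPKM or at none, and 0.1 as pseudocount. For the alpha sum they were median scaling, each pool left out and the sum without its most abundant gene. Sequences of the alpha genes were not used here.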

Additional observations from a re-analysis of the deposited data

How the results depend on the processing

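No alpha gene changed direction under any alternative run. Of the 3 alpha genes that passed, none did with no filter or without the trend (0 in both fits, 7 at an unadjusted p under 0.05, which 14.5% and 15.4% of all genes tested reached), where log2 fold changes stayed at 0.94 for *atp1a1a.2*, 1.31 for *atp1a1a.3* and 0.60 for *atp1a1b* (limma adjusted p = 0.0772 to 0.171). The *atp1a1a.4* gene passed with quantile normalization (log2 fold change -0.55), median scaling (-0.48) and the block (-0.47). With 1 pool left out, 0 to 3 alpha genes passed, with log2 fold changes of 0.75 to 1.07 for *atp1a1a.2*, 1.12 to 1.46 for *atp1a1a.3*, 0.54 to 0.66 for *atp1a1b* and 0.63 to 0.96 for *atp1a3b*. Over all genes, 199 passed, against 6 with no filter, 38 without the trend and 15 to 422 with 1 pool left out, and the 6 comprised 1 higher and 5 lower while the 199 comprised 152 higher and 47 lower. A fit without the filter tests more low genes, and 1 without a pool has fewer samples, also the fit without wild-type pool 2, where 422 passed. The cause of these differences was not tested. The ratio of summed alpha FPKM was 1.13 to 1.26 with 1 pool left out, 1.18 with median scaling and 1.16 without *atp1a1a.1*. With the column number as a replicate block, 353 genes passed, 6 of them alpha genes (*atp1a2a* and *atp1a3b* at log2 fold changes of 0.73 and 0.75 besides *atp1a1a.4* and the 3 above). Pools of the same number had deviations that correlated at 0.03, 0.00 and 0.08, so the numbers were not taken to pair the pools. Read numbers are known only in relative terms, so how far depth limits single alpha genes was not tested.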

Other observations

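Genes tied to hormones that act on salt balance, among them receptors and targets, were read as 1 further list. By limma, 0.696% of all genes tested passed as higher. Of 8 genes tested, 1 rose, *fkbp5*, a co-chaperone gene that glucocorticoids induce, which shares its locus in the table with another gene. It read 23.6, 28.1 and 38.8 FPKM in wild-type and 70.7, 72.1 and 71.7 FPKM in MZ mutants, so wild-type pool 2 was the highest wild-type pool and the mutant pools lay close together (1.25 ± 0.16, SE, on the log2 scale, limma adjusted p = 0.0145, and 0.00511 to 0.077 without 1 pool). The kinase gene *sgk1*, another corticoid target, was at 26.1 ± 6.02 FPKM in wild-type and 44.1 ± 8.98 FPKM in mutants (SD, n = 3; 0.74 on the log2 scale, limma adjusted p = 0.0994). The median of the list was -0.01 on the log2 scale, and *casr* was under the filter. An unadjusted p under 0.05 was reached by 2 that were higher and 3 that were lower, and by 16.3% of all genes tested. The 3 lower genes were *stc1l* (-1.72 on the log2 scale, limma adjusted p = 0.208, at 0 in mutant pool 2), *prlrb* (-0.53, 0.216) and *nr3c2* (-0.37, 0.276).

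The genes whose log2(FPKM + 1) values followed those of an alpha gene most closely over the 6 pools were sought among 13261 genes averaging 5 FPKM or more, as a description, since with so few pools many genes are alike. For *atp1a1b* they were *pgd*, a pentose phosphate dehydrogenase gene, *si:ch211-98n17.5* and *selt2* (Pearson's r = 0.997, 0.996 and 0.995), and 278 genes had an r above 0.95. For *atp1a1a.3* they were *si:ch73-74h11.1*, *vapb* and *cdc37* (0.996, 0.996 and 0.996), with 224 genes above 0.95. For *atp1a1a.1*, the most abundant alpha gene over all pools, they were *capn2a*, *apoa4b.3* and *crema* (0.996, 0.996 and 0.995), with 315 genes above 0.95. The points share library, depth and genotype.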
